A study of Mus musculus with 12 samples.

Results

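Transcripts of 10 immediate early genes (Fos, Fosb, Jun, Junb, Atf3, Egr1, Nr4a1, Klf2, Ier2 and Dusp1) were examined in microglia of mice that kept or lost the histone deacetylase HDAC3. They were chosen by symbol and are 10 of the 55401 genes counted, and all 10 passed the filter on low counts. RNA was sequenced from CD45int CD11b+ microglia, sorted from the brain of male mice into 12 libraries, 3 in each of 4 groups, and the cells of each library came from 3 to 4 hemispheres, so that a replicate is a pool of animals. WT mice carried the alleles CX3CR1wt/wt:HDAC3loxp/loxp. Mice of the microglia-specific knockout (miKO) carried CX3CR1CreER/wt:HDAC3loxp/loxp, in which a tamoxifen-dependent Cre recombinase takes the place of 1 Cx3cr1 allele, so that loss of Hdac3 and loss of that Cx3cr1 copy cannot be told apart here. Tamoxifen at 100 mg/kg was given for 5 days to animals of 6 to 8 weeks of age, and surgery followed at least a month later. WT-tFCI and miKO-tFCI mice underwent transient focal cerebral ischaemia, in which the left middle cerebral artery was blocked for 60 min, and their microglia were taken on day 3. WT-Sham and miKO-Sham mice underwent the operation without the block. The comparisons address how loss of HDAC3 changes the microglial response to stroke.

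Immediate early genes are transcribed within minutes of a stimulus, without the need for new protein, because the factors that switch them on are already present and are activated by kinases. Most encode transcription factors of the AP-1, EGR, NR4A and KLF families, and others encode phosphatases that shut the same kinases off. Their transcripts are short-lived. In brain tissue they are used as a mark of recent activity, and in microglia they are also known to be induced by enzymatic digestion and sorting of live cells. Here the tissue was minced, digested with enzymes and passed through a Percoll gradient before staining on ice and sorting. No inhibitor of transcription is named in the methods read here, so that transcripts present in the brain and transcripts made during isolation cannot be told apart in any of the libraries.

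The promoters of 4 of the genes are shown because their transcripts followed contrasting patterns across the groups. Fos and Junb were lowest in miKO-tFCI, Dusp1 differed by surgery and not detectably by genotype, and Nr4a1 was highest in WT-tFCI. The sequences are from RefSeq (GRCm38.p6), which gave an entry for 8 of the 10 genes, and each is the stretch before the RefSeq start that lies in no annotated exon. For Dusp1 and Nr4a1 that start lies inside the longer annotated gene whose position is given below. Capitals mark each TGACG, the core of the cAMP response element bound by the kinase-activated factor CREB, read on either strand (CGTCA on the other). The stretches are chr12:85473640-85473889 on the plus strand, chr8:84978749-84978998 on the minus strand, chr17:26508520-26508722 on the minus strand and chr15:101266596-101266845 on the plus strand, each written 5′ to 3′ along its gene.
Fos: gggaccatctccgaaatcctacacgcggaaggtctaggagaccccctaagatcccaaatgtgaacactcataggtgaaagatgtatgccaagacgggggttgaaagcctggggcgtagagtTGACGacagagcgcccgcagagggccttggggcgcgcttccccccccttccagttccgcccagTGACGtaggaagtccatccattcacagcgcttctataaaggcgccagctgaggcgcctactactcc
Junb: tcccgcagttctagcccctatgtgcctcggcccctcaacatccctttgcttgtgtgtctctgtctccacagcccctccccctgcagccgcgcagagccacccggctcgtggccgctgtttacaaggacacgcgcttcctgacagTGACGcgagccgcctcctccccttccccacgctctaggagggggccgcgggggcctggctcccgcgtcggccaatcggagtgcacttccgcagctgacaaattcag
Dusp1: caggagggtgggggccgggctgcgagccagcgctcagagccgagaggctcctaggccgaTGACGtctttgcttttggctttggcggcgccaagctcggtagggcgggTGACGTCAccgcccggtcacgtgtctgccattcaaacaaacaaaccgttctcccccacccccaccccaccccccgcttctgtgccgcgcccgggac
Nr4a1: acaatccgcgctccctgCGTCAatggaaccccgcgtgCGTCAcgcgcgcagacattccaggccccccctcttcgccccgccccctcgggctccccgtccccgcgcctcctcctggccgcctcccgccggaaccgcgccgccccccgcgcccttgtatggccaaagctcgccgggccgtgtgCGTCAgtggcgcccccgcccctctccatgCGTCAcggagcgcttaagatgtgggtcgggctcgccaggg
In the window from 250 bases before to 50 after the start, TGACG was present in 7 of the 8 promoters (Jun had none) and in 21.0% of the 27025 promoters of all genes. The full palindrome TGACGTCA, which contains TGACG on both strands, was present in 1 of 8 (Dusp1) and in 1.88% of all promoters. The MEF2 site was present in 3 of 8 (Jun, Atf3 and Klf2) and in 3.26% of all, and the NF-kB site in 3 of 8 and 28.2% of all. The TATA box TATAAA was present in 2 of 8 and 14.2% of all. The AP-1 site TGANTCA (7.93% of all promoters), the EGR site GCGTGGGCG (0.625%) and the CArG box (1.57%) were present in 0 of 8, which says only that these letters were not in this window. All searches covered both strands. The TGACG core was chosen after the promoters had been read, and a match is a description, not a site in use.

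The libraries held between 7697864 and 9452222 counts on genes. The genes described here were counted at between 460 (Nr4a1 in a miKO-Sham library) and 70597 (Fos in a WT-Sham library), so that counting error was small beside the spread between replicates. Levels are given as CPM, the counts of a gene relative to the total of its library, with each total scaled by the trimmed mean of M-values (TMM). Hdac3, the targeted gene, was measured first to check the labels. Its level was 35.0, 44.0 and 46.4 CPM in WT-Sham, 25.8, 25.0 and 20.9 in miKO-Sham, 54.0, 52.9 and 43.9 in WT-tFCI and 36.0, 27.1 and 28.9 in miKO-tFCI, with no overlap between genotypes within either surgery. The 10 microglial markers were detected in every group, and their summed level ran from 10484 to 38678 CPM, the lowest in miKO-tFCI. Replicate 1 of each group belonged to sequencing batch 1 and replicates 2 and 3 to batch 2. Within groups, miKO-Sham replicates 1 and 2 were the closest pair although they were labelled with different batches (chi-square per degree of freedom 2.82, against 3.65 to 76.6 for other pairs). They were kept as separate libraries, and each result was also computed without either.

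Together the 10 genes took a share of the counts that differed between the groups without overlap. It was 3.004%, 3.40% and 3.46% in WT-Sham, 1.68%, 1.65% and 1.93% in miKO-Sham, 1.25%, 1.39% and 1.50% in WT-tFCI, and 0.672%, 0.812% and 0.786% in miKO-tFCI. Every WT-Sham library was thus above every other library, and every miKO-tFCI library was below. Fos, Jun, Junb and Dusp1 made up most of these counts.

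Levels between genes were compared per kilobase of exon. Fos had the highest mean of the 10 in every group, at 3162 ± 388 CPM per kilobase in WT-Sham and 775 ± 42.9 in miKO-tFCI (mean ± SD, n = 3). Junb had the second highest mean in every group, at 2010.4 ± 104 in WT-Sham and 604 ± 53.4 in miKO-tFCI. The ranges of Fos and Junb over the libraries overlapped in miKO-Sham and WT-tFCI. Compared within libraries, Fos was above Junb in each WT-tFCI library, but below it in miKO-Sham replicate 3. In WT-Sham the order then ran Jun, Dusp1, Atf3, Klf2, Egr1 and Ier2. The ranges of Junb and Jun, Jun and Dusp1, Klf2 and Egr1, and Egr1 and Ier2 overlapped there. Within each WT-Sham library, Junb was above Jun, Jun above Dusp1 and Egr1 above Ier2, although Egr1 and Ier2 were close in replicate 1. Klf2 and Egr1 changed places between libraries and cannot be ordered. Fosb (82.9 ± 37.0) and Nr4a1 (42.7 ± 9.21) were the lowest in WT-Sham. The order of the middle genes differed after surgery. Atf3 came next after Junb in WT-tFCI, at 856 ± 111 CPM per kilobase, with ranges that overlapped, and was below Junb within each library. Dusp1, with 373 ± 32.8, came after Ier2 and Klf2 there, with ranges of these 3 genes that also overlapped. Nr4a1 was above Fosb in both tFCI groups, in WT-tFCI without overlap (144 ± 15.8 against 34.4 ± 7.97). With the longest transcript as the length in place of all exons, Junb came before Fos in WT-tFCI and Dusp1 before Jun in WT-Sham.

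**Figure D1:**
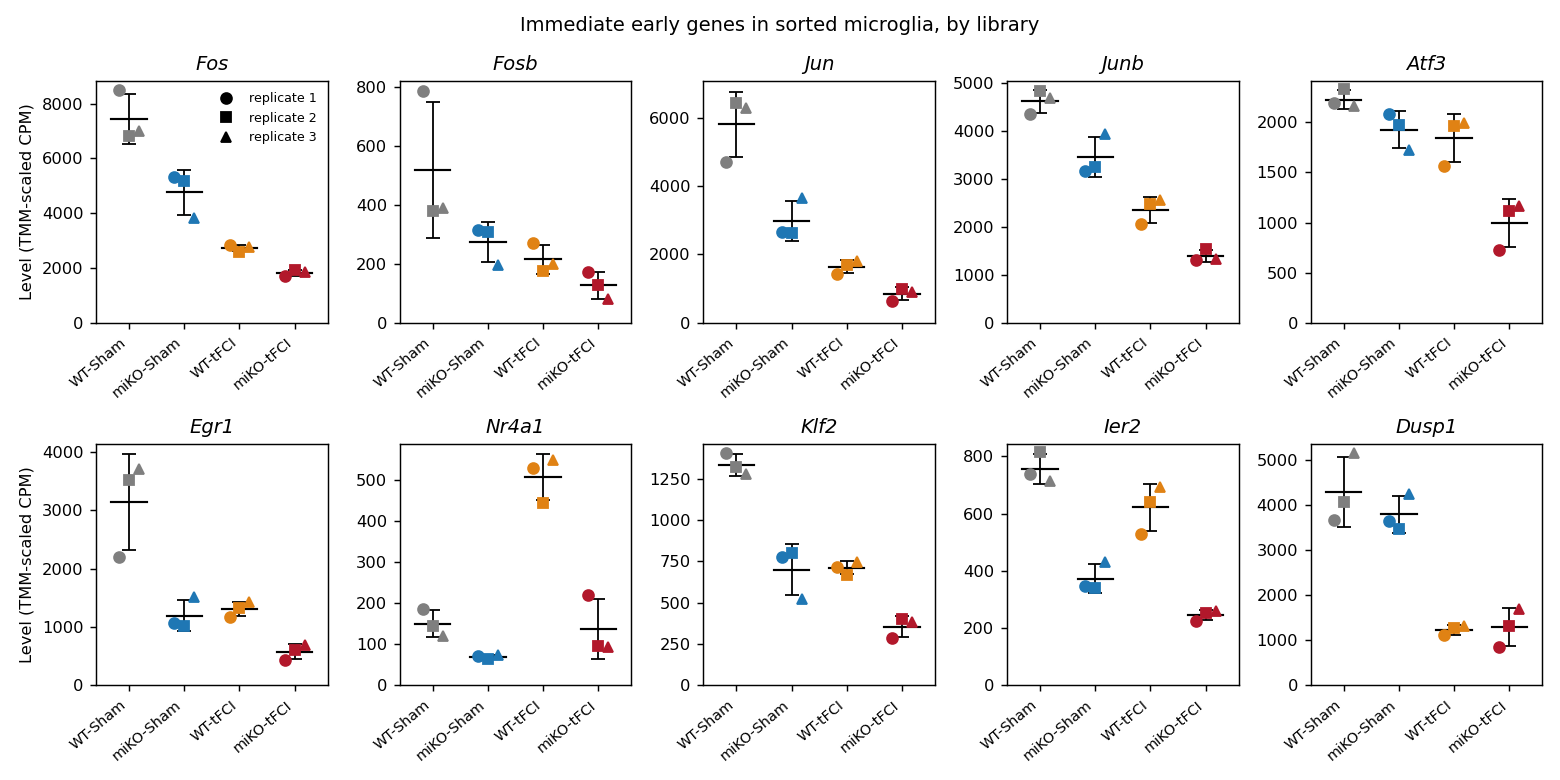
Level of each of the 10 genes (TMM-scaled CPM, linear axis from 0) in the 12 libraries, with marker shape for the replicate number, a bar for the group mean and whiskers for 1 SD (n = 3). Most genes step down from WT-Sham to miKO-tFCI, Dusp1 separates by surgery alone, and Nr4a1 is highest in WT-tFCI at 444 to 548 CPM.

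Stroke in WT mice was accompanied by lower levels of most of the genes. A gene was called changed where the quasi-likelihood test of edgeR (Benjamini-Hochberg adjustment) over the 16451 genes tested gave an adjusted p below 0.05 and the log2 fold change was beyond 0.58 in either direction. In WT-tFCI vs. WT-Sham, 7 of the 10 genes fell, against 11.7% of all genes tested, and 1 of 10 (Nr4a1) rose, against 20.7% of all genes. Ier2 and Atf3 were not called. The median log2 fold change of the 10 was -1.10, beside 0.02 over all genes, and the values ran from -1.82 (Jun) to 1.79 (Nr4a1).

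In miKO mice the same surgery gave calls for all 10 genes. In miKO-tFCI vs. miKO-Sham, 9 of 10 fell (13.9% of all genes tested fell) and 1, Nr4a1, rose (21.7% of all rose). The median log2 fold change was -1.11, beside 0.03 over all genes, and the values ran from -1.84 (Jun) to 0.89 (Nr4a1).

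Loss of HDAC3 was accompanied by lower levels with either surgery. In miKO-Sham vs. WT-Sham, 7 of 10 genes fell, against 6.84% of all genes tested, and 0 of 10 rose, against 8.35% of all, with a median log2 fold change of -0.89 beside 0.04 over all genes. In miKO-tFCI vs. WT-tFCI, 8 of 10 fell, against 4.80% of all genes, and 0 of 10 rose, against 3.96%, with a median of -0.93 beside 0.04. These 4 comparisons share groups in pairs, so that their counts do not stand apart from each other. For each call in the 4 comparisons, the difference had the same sign within batch 1, which has 1 library per group, and within batch 2.

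Whether the response to stroke differed by genotype was tested by the interaction of genotype and surgery. No gene of the 10 was called higher (0 of 10, against 1.26% of all genes tested) or lower (0 of 10, against 2.68%). At an unadjusted p under 0.05 there were 2, Nr4a1 and Atf3. DESeq2 called 1 (Atf3). The median of the 10 interaction values was -0.04 on the log2 scale, beside -0.02 over all genes.

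**Figure D2:**
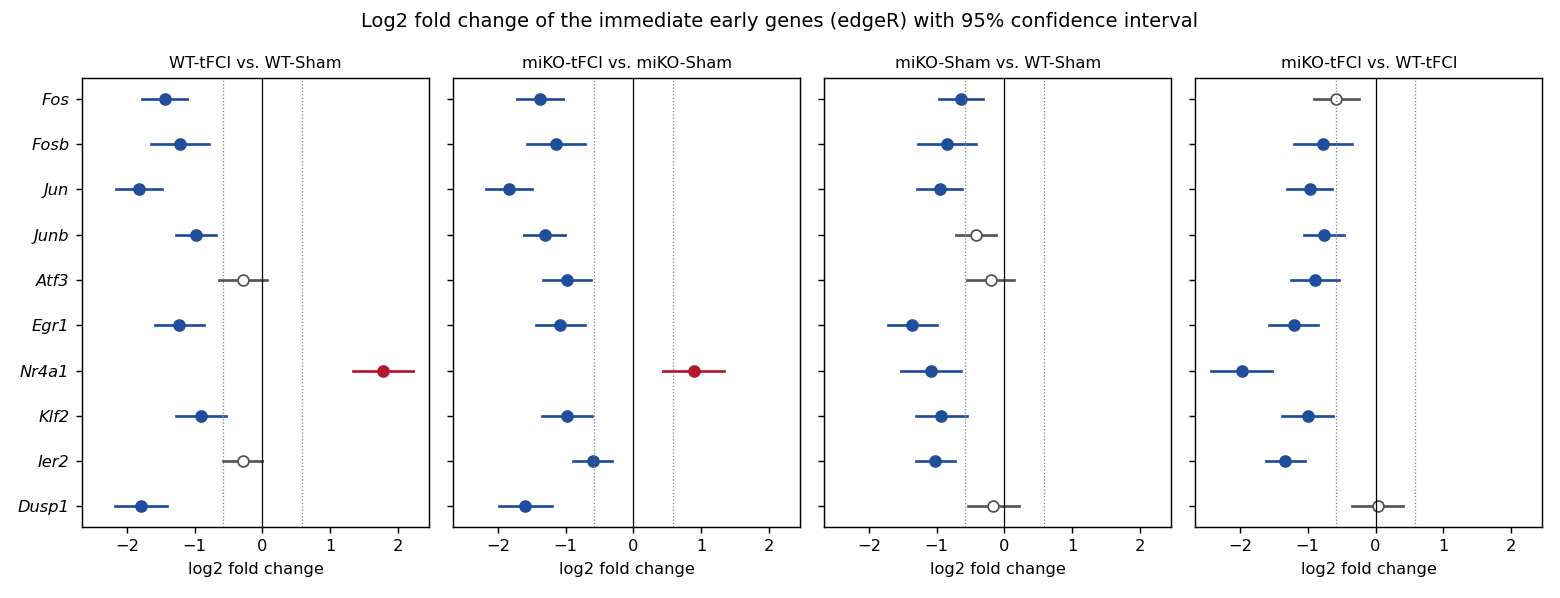
Log2 fold change of each gene with its 95% confidence interval in the 4 comparisons between groups. Filled points are called (blue lower, red higher), open points are not, and dotted lines mark the fold limit of 0.58 in either direction. Nr4a1 is to the right of 0 in both surgery comparisons and to the left in both genotype comparisons.

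Fos (chr12:85473890-85477273) encodes c-Fos, the AP-1 subunit that pairs with Jun proteins, and was the most abundant transcript of the set. Its level was 8486, 6833 and 6991 in the 3 WT-Sham libraries, 5308, 5172 and 3819 in miKO-Sham, 2832, 2589.7 and 2758 in WT-tFCI and 1712, 1910.2 and 1844 in miKO-tFCI CPM. The 4 groups did not overlap and stepped down in that order. Fos fell 2.72-fold with stroke in WT, a log2 fold change of -1.44 (SE 0.16, adjusted p = 3.61e-06), and 2.60-fold in miKO, -1.38 (SE 0.16, adjusted p = 6.35e-06), by the quasi-likelihood test of edgeR (Benjamini-Hochberg adjustment). It also fell in miKO-Sham against WT-Sham, -0.64 (SE 0.16, adjusted p = 0.00832), although this call was lost without WT-Sham replicate 1 (-0.57) or without miKO-Sham replicate 3 (-0.51), both just inside the fold limit. In miKO-tFCI vs. WT-tFCI the log2 difference of -0.58 (SE 0.16, adjusted p = 0.0275) was significant but just inside the fold limit. Over all alternatives it ran from -0.68 to -0.50 with an adjusted p of 0.000331 to 0.133 (edgeR or DESeq2). It was called without WT-Sham replicate 1, 2 or 3 or WT-tFCI replicate 1, with no filter on low counts, with only the groups compared in the fit and with library totals, and its adjusted p was above 0.05 without WT-tFCI replicate 2 or 3, without miKO-tFCI replicate 2 or 3 and without a batch term.

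Fosb (chr7:19302696-19310051) encodes a relative of c-Fos and showed the same order at a much lower level and with more spread. Its level was 785, 379.8 and 389 in the 3 WT-Sham libraries, 315, 308 and 195 in miKO-Sham, 270.3, 175 and 199 in WT-tFCI and 172, 129 and 80.2 in miKO-tFCI CPM. WT-Sham replicate 1 stood far above the other WT-Sham libraries, and miKO-Sham and WT-tFCI overlapped. Fosb fell with stroke in WT, with a log2 fold change of -1.22 (SE 0.20, adjusted p = 0.00022), and in miKO, -1.14 (SE 0.20, adjusted p = 0.000351). The genotype differences were -0.85 (SE 0.20, adjusted p = 0.00689) after sham surgery and -0.78 (SE 0.20, adjusted p = 0.0227) after tFCI. The latter call was lost without WT-tFCI replicate 2 (adjusted p = 0.0726 by edgeR's quasi-likelihood test) or 3 (0.116), or without miKO-tFCI replicate 1 (0.065) or 3 (0.0947). The call after sham surgery was lost with batch 2 only (-0.63, adjusted p = 0.105 by the same test), and both genotype calls were lost without a batch term.

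Jun (chr4:95049034-95052222) encodes c-Jun, the partner through which Fos proteins bind DNA. Its level was 4715, 6440.1 and 6281 in the 3 WT-Sham libraries, 2644, 2619 and 3660.4 in miKO-Sham, 1425, 1677 and 1798 in WT-tFCI and 634, 994 and 901 in miKO-tFCI CPM, with no overlap between any of the groups. Jun had the largest fall with stroke of the AP-1 genes of the set, 3.54-fold in WT (log2 fold change -1.82 (SE 0.16, adjusted p = 2.72e-07)) and 3.57-fold in miKO (-1.84 (SE 0.16, adjusted p = 3.67e-07)). The difference between genotypes was nearly the same after sham surgery, -0.96 (SE 0.16, adjusted p = 0.000348), and after tFCI, -0.97 (SE 0.16, adjusted p = 0.000897), and the interaction was -0.01 (95% confidence interval -0.48 to 0.45). An antisense gene, Junos, overlaps 232 bases of Jun on the other strand and was counted at 1006 to 12141. The library kit does not mark strand, so that reads in that overlap cannot be assigned.

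Junb (chr8:84974484-84978718) encodes JunB, which pairs with the same Fos proteins as c-Jun but activates fewer of their targets. Its level was 4364, 4831 and 4683 in the 3 WT-Sham libraries, 3176, 3246 and 3936 in miKO-Sham, 2051, 2475 and 2553 in WT-tFCI and 1301, 1530.2 and 1339 in miKO-tFCI CPM, again with 4 groups that did not overlap. The fall with stroke was -0.98 (SE 0.14, adjusted p = 5.52e-05) on the log2 scale in WT and -1.31 (SE 0.14, adjusted p = 3.53e-06) in miKO. After tFCI, Junb was 1.69-fold lower in miKO than in WT, -0.76 (SE 0.14, adjusted p = 0.00268). After sham surgery the log2 difference was -0.42 (SE 0.14, adjusted p = 0.0449), inside the fold limit. Junb shares 173 bases with Prdx2 on the other strand.

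Atf3 (chr1:191170296-191218039), whose product is a stress-induced factor that pairs with Jun proteins and often represses, stood apart from the other AP-1 genes. Its level was 2190.1, 2333 and 2164 in the 3 WT-Sham libraries, 2081, 1979 and 1727 in miKO-Sham, 1568, 1968 and 1995 in WT-tFCI and 723, 1111 and 1161 in miKO-tFCI CPM. WT-Sham was above miKO-Sham and WT-tFCI without overlap, whereas miKO-Sham and WT-tFCI overlapped. The libraries of these 3 groups lay between 1568 and 2333 CPM, and the 3 miKO-tFCI libraries were below all of them. Atf3 fell in miKO-tFCI vs. miKO-Sham, -0.98 (SE 0.17, adjusted p = 0.000248) on the log2 scale, and in miKO-tFCI vs. WT-tFCI, -0.89 (SE 0.17, adjusted p = 0.00288). In WT the log2 difference with stroke was -0.28 (SE 0.17, adjusted p = 0.19), and after sham surgery that between genotypes was -0.20 (SE 0.17, adjusted p = 0.447). The interaction was -0.69 (SE 0.23, adjusted p = 0.121) by the quasi-likelihood test of edgeR (Benjamini-Hochberg adjustment), with a 95% confidence interval of -1.19 to -0.20. Over all alternatives its adjusted p ran from 0.0241 to 0.303.

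Egr1 (chr18:34859823-34864984) encodes a zinc-finger factor that responds to growth factor and kinase signals, and it had the largest genotype difference of the 10 after sham surgery. Its level was 2191, 3516 and 3709 in the 3 WT-Sham libraries, 1064, 1016 and 1511 in miKO-Sham, 1177, 1332 and 1422 in WT-tFCI and 433, 606 and 690.4 in miKO-tFCI CPM. WT-Sham was above every other group without overlap and miKO-tFCI below, whereas miKO-Sham and WT-tFCI overlapped. Egr1 was 2.57-fold lower in miKO-Sham than in WT-Sham (log2 fold change -1.36 (SE 0.17, adjusted p = 2.89e-05)) and 2.31-fold lower in miKO-tFCI than in WT-tFCI (-1.21 (SE 0.17, adjusted p = 0.000301)). The falls with stroke were -1.23 (SE 0.17, adjusted p = 3.91e-05) in WT and -1.08 (SE 0.17, adjusted p = 0.000123) in miKO.

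Nr4a1 (chr15:101254269-101274795), which encodes the orphan nuclear receptor Nur77, a brake on inflammatory transcription in myeloid cells, was the only one of the 10 to rise with stroke. Its level was 185, 144 and 121 in the 3 WT-Sham libraries, 71.6, 63.8 and 73.0 in miKO-Sham, 528, 444 and 548 in WT-tFCI and 220.3, 96.3 and 93.4 in miKO-tFCI CPM. WT-tFCI was above every other group without overlap, miKO-Sham was below, and the miKO-tFCI libraries lay on both sides of WT-Sham, with replicate 1 far above replicates 2 and 3. In WT, Nr4a1 rose 3.45-fold with stroke, a log2 fold change of 1.79 (SE 0.21, adjusted p = 1e-05) by the quasi-likelihood test of edgeR (Benjamini-Hochberg adjustment). In miKO it rose 1.85-fold, 0.89 (SE 0.21, adjusted p = 0.00327), but the log2 difference was 0.48 without miKO-tFCI replicate 1 and 0.44 in batch 2 alone, both inside the fold limit. Nr4a1 was 2.11-fold lower in miKO-Sham than in WT-Sham, -1.08 (SE 0.21, adjusted p = 0.00176), and 3.94-fold lower in miKO-tFCI than in WT-tFCI, -1.98 (SE 0.21, adjusted p = 3.4e-05), the largest genotype difference of the 10. The interaction was -0.90 (SE 0.29, adjusted p = 0.112), with a 95% confidence interval of -1.52 to -0.27. It was 0.10 in batch 1 and -1.43 in batch 2, and without miKO-tFCI replicate 1 it was -1.26 and was called (adjusted p = 0.00248 by edgeR's quasi-likelihood test). It was also called with all 12 libraries and no filter on low counts (-0.91, adjusted p = 0.00144 by the same test), so that the call turned on miKO-tFCI replicate 1 and on the filter.

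Klf2 (chr8:72319033-72321656) encodes a factor that keeps myeloid and endothelial cells quiescent. Its level was 1406, 1322 and 1277 in the 3 WT-Sham libraries, 776, 801 and 525 in miKO-Sham, 718, 669.5 and 749 in WT-tFCI and 284, 400.4 and 383 in miKO-tFCI CPM. WT-Sham was above all other groups and miKO-tFCI below, and miKO-Sham and WT-tFCI overlapped. The 4 differences were similar in size, with log2 fold changes of -0.91 (SE 0.17, adjusted p = 0.000731) for stroke in WT, -0.98 (SE 0.18, adjusted p = 0.000359) for stroke in miKO, -0.93 (SE 0.17, adjusted p = 0.00121) for genotype after sham surgery and -1.002 (SE 0.18, adjusted p = 0.00183) for genotype after tFCI.

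Ier2 (chr8:84661331-84662852), a nuclear regulator of transcription that responds to growth factors, differed mainly by genotype. Its level was 739.6, 815 and 713 in the 3 WT-Sham libraries, 347, 342 and 431 in miKO-Sham, 530.0, 641 and 694 in WT-tFCI and 226, 254 and 259 in miKO-tFCI CPM. Each WT library was above each miKO library whatever the surgery. Ier2 was 2.03-fold lower in miKO-Sham than in WT-Sham (log2 fold change -1.02 (SE 0.14, adjusted p = 5.46e-05)) and 2.51-fold lower in miKO-tFCI than in WT-tFCI (-1.33 (SE 0.14, adjusted p = 1.74e-05)). With stroke the log2 difference in WT was -0.29 (SE 0.14, adjusted p = 0.101), which missed the threshold. In miKO Ier2 fell, with a log2 fold change of -0.60 (SE 0.14, adjusted p = 0.00223), close to the fold limit. The call was lost inside that limit without miKO-Sham replicate 3 (-0.52), with DESeq2 (-0.57), with RLE size factors (-0.576), with at least 10 counts in every library (-0.53) and with library totals without TMM (-0.48). The interaction was -0.31 (SE 0.19, adjusted p = 0.444) with a 95% confidence interval of -0.71 to 0.10, so that a difference between the responses to stroke was not shown.

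Dusp1 (chr17:26505590-26562128), which encodes a phosphatase that inactivates the stress kinases p38 and JNK and so shuts off immediate early transcription, differed by surgery. Its level was 3666, 4060.3 and 5149 in the 3 WT-Sham libraries, 3646, 3481 and 4253 in miKO-Sham, 1113, 1276 and 1319 in WT-tFCI and 854, 1328 and 1690.0 in miKO-tFCI CPM. Every sham library was above every tFCI library, and the genotypes overlapped within each surgery. Dusp1 fell 3.46-fold with stroke in WT, a log2 fold change of -1.79 (SE 0.18, adjusted p = 1.58e-06), and 3.02-fold in miKO, -1.59 (SE 0.18, adjusted p = 5.99e-06). The genotype differences were -0.16 after sham surgery (95% confidence interval -0.54 to 0.21) and 0.03 after tFCI (-0.34 to 0.41), so that a change of up to about the fold limit cannot be told from none. In miKO-tFCI the 3 libraries were spread more widely than in WT-tFCI. Dusp1 shares 11 bases with Ergic1 on the other strand.

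The other genes of these families, from lists chosen by name, did not all follow the set. Of all genes tested, 20.7% rose and 11.7% fell in WT-tFCI vs. WT-Sham, and 21.7% and 13.9% in miKO-tFCI vs. miKO-Sham. In miKO-Sham vs. WT-Sham 8.35% rose and 6.84% fell, and in miKO-tFCI vs. WT-tFCI 3.96% and 4.80%. The counts of this and the following lists are to be read beside these shares, and some lie near them. Of 12 other AP-1 subunits and partners tested, 6 rose and 2 fell in WT-tFCI vs. WT-Sham, 3 rose and 3 fell in miKO-tFCI vs. miKO-Sham, 3 rose and 2 fell in miKO-Sham vs. WT-Sham, and 0 rose and 2 fell in miKO-tFCI vs. WT-tFCI, with medians of 0.55, -0.10, 0.01 and -0.33. Jund, the least inducible Jun gene, fell with stroke in WT, -1.59 (SE 0.15, adjusted p = 4.96e-07), and in miKO, -1.42 (SE 0.15, adjusted p = 2.09e-06), as well as in miKO-Sham against WT-Sham, -0.66 (SE 0.14, adjusted p = 0.00387). Fosl2, which encodes the late-acting subunit Fra-2, rose with stroke in WT, 1.21 (SE 0.29, adjusted p = 0.00487), and in miKO, 1.88 (SE 0.31, adjusted p = 0.000298). Jdp2, which encodes a Jun dimerization partner that represses AP-1, rose with stroke in WT, 1.54 (SE 0.25, adjusted p = 0.000281), and was higher in miKO-Sham than in WT-Sham, 1.12 (SE 0.25, adjusted p = 0.00599). Maff and Mafk, small Maf proteins that lack an activation domain, were the 2 that fell in miKO-tFCI vs. WT-tFCI, at -1.50 (SE 0.20, adjusted p = 0.00019) and -0.62 (SE 0.14, adjusted p = 0.00874). In the interaction 0 of the 12 were higher and 2 lower.

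Of 14 EGR, NR4A and KLF relatives tested, 6 rose and 2 fell in WT-tFCI vs. WT-Sham, 5 rose and 2 fell in miKO-tFCI vs. miKO-Sham, 1 rose and 2 fell in miKO-Sham vs. WT-Sham, and 2 rose and 3 fell in miKO-tFCI vs. WT-tFCI, with 0 in the interaction in either direction, and the medians of the first 4 were 0.55, 0.17, -0.20 and -0.34. The shares of all genes just given apply to these counts as well. Nr4a3, a sister of Nr4a1, also rose with stroke in WT, 3.15 (SE 0.50, adjusted p = 0.000148), from 1.45 to 11.2 CPM. Klf4, which like Klf2 is expressed in myeloid cells, fell with stroke in WT, -1.15 (SE 0.18, adjusted p = 0.00013), and in miKO, -1.41 (SE 0.18, adjusted p = 2.05e-05). Klf6, an injury-responsive relative, was lower in miKO than in WT after sham surgery, -0.71 (SE 0.16, adjusted p = 0.00601), and after tFCI, -0.66 (SE 0.17, adjusted p = 0.0185). Nab1, which encodes a corepressor of EGR proteins, rose with stroke in both genotypes, 1.06 (SE 0.19, adjusted p = 0.000476) and 0.79 (SE 0.19, adjusted p = 0.00385).

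Of 11 other dual-specificity phosphatases, 4 rose and 2 fell in WT-tFCI vs. WT-Sham, 2 rose and 2 fell in miKO-tFCI vs. miKO-Sham, 0 rose and 4 fell in miKO-Sham vs. WT-Sham, and 0 rose and 3 fell in miKO-tFCI vs. WT-tFCI (medians 0.29, 0.14, -0.44 and -0.11), with 0 in the interaction. Dusp6 and Dusp7, which act on ERK, fell with stroke like Dusp1, Dusp6 with log2 fold changes of -1.49 (SE 0.23, adjusted p = 0.00014) in WT and -1.29 (SE 0.23, adjusted p = 0.000428) in miKO, and Dusp7 with -1.53 (SE 0.13, adjusted p = 2.33e-07) and -1.33 (SE 0.13, adjusted p = 1.27e-06). Dusp2, a phosphatase of immune cells, was lower in miKO than in WT after sham surgery, -1.15 (SE 0.26, adjusted p = 0.0068), and after tFCI, -1.58 (SE 0.27, adjusted p = 0.00191). The counts of this list, too, are to be read beside the shares of all genes given above.

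Of 31 other immediate early genes tested, 13 rose and 6 fell in WT-tFCI vs. WT-Sham, 10 rose and 10 fell in miKO-tFCI vs. miKO-Sham, 3 rose and 3 fell in miKO-Sham vs. WT-Sham, and 1 rose and 8 fell in miKO-tFCI vs. WT-tFCI, with medians of 0.45, 0.04, -0.10 and -0.45. Zfp36, which encodes tristetraprolin, a protein that speeds decay of inflammatory mRNA, was the most abundant of them and fell from 7511 to 3518 CPM with stroke in WT, -1.09 (SE 0.15, adjusted p = 5.04e-05), and in miKO, -1.41 (SE 0.16, adjusted p = 4.81e-06). Btg2, an antiproliferative gene, fell in all 4 comparisons, from -0.76 (SE 0.13, adjusted p = 0.00056) in miKO-Sham vs. WT-Sham to -1.69 (SE 0.13, adjusted p = 1.71e-07) in miKO-tFCI vs. miKO-Sham. Nfkbia, which encodes the NF-kB inhibitor IkBa, fell in miKO-tFCI vs. miKO-Sham, -0.86 (SE 0.14, adjusted p = 0.000166), and in miKO-tFCI vs. WT-tFCI, -1.01 (SE 0.14, adjusted p = 0.000253). Ier3 went the other way after sham surgery and was higher in miKO-Sham than in WT-Sham, 1.22 (SE 0.17, adjusted p = 8.94e-05). In the interaction 0 rose and 6 fell, Nfkbia (-1.01 (SE 0.20, adjusted p = 0.00763)) and Ier3 (-1.16 (SE 0.24, adjusted p = 0.0111)) among them. All counts of this list stand beside the shares of all genes given above.

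The factors and kinases that switch immediate early genes on were measured as a further list, to be read beside the shares of all genes called given above. Of 30 tested, 3 rose and 5 fell in WT-tFCI vs. WT-Sham, 2 rose and 6 fell in miKO-tFCI vs. miKO-Sham, 1 rose and 3 fell in miKO-Sham vs. WT-Sham, and 0 rose and 3 fell in miKO-tFCI vs. WT-tFCI (medians -0.11, -0.18, -0.13 and -0.15), with 0 higher and 1 lower in the interaction. Mef2c, which encodes a factor that binds the MEF2 site, fell with stroke in WT, -0.77 (SE 0.16, adjusted p = 0.0013), and in miKO, -1.24 (SE 0.16, adjusted p = 2.09e-05), and was lower in miKO-tFCI than in WT-tFCI, -0.77 (SE 0.16, adjusted p = 0.0062). Crem, a CREB relative whose short forms repress, rose with stroke in WT, 1.54 (SE 0.31, adjusted p = 0.001), and in miKO, 2.00 (SE 0.32, adjusted p = 0.000164). Mapkapk2, the kinase downstream of p38, was higher in miKO-Sham than in WT-Sham, 1.11 (SE 0.16, adjusted p = 0.000123).

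Genes known as targets of these factors were also measured, in comparisons with stroke in which 20.7% (WT) and 21.7% (miKO) of all genes tested rose. In the genotype comparisons, 8.35% (sham) and 3.96% (tFCI) of all genes rose. Of 14 AP-1 and EGR targets, 8 rose and 1 fell in WT-tFCI vs. WT-Sham, 10 rose and 1 fell in miKO-tFCI vs. miKO-Sham, 5 rose and 2 fell in miKO-Sham vs. WT-Sham, and 4 rose and 0 fell in miKO-tFCI vs. WT-tFCI (medians 2.14, 2.41, 0.51 and 0.75), and 2 were higher and 2 lower in the interaction. Plaur, the urokinase receptor, rose with stroke in WT, 1.92 (SE 0.14, adjusted p = 5.36e-08), and was higher in miKO than in WT after sham surgery, 2.61 (SE 0.15, adjusted p = 9.01e-09), and after tFCI, 0.62 (SE 0.14, adjusted p = 0.0096). In miKO Plaur was not called with stroke, -0.07 (SE 0.14, adjusted p = 0.69 by edgeR's quasi-likelihood test). Its interaction was called, -1.99 (SE 0.20, adjusted p = 3.91e-05 by the same test). Cd44, an adhesion receptor, was higher in miKO-tFCI than in WT-tFCI, 1.76 (SE 0.16, adjusted p = 4.03e-06). Of 8 KLF2 targets of myeloid and vessel cells, 5 rose and 0 fell in WT-tFCI vs. WT-Sham, 5 rose and 1 fell in miKO-tFCI vs. miKO-Sham, 3 rose and 0 fell in miKO-Sham vs. WT-Sham, and 1 rose and 0 fell in miKO-tFCI vs. WT-tFCI (medians 2.04, 2.03, 1.02 and 1.00), with 0 higher and 2 lower in the interaction. Of the KLF2 targets that rose with stroke, Thbd, Nos3, Itgb7 and Plxnd1 were near the floor in WT-Sham, at means of 1.34, 0.658, 1.64 and 0.406 CPM. Among the AP-1 and EGR targets, Mmp12 and Timp1 were near it too, at 0.388 and 0.160 CPM. The part of vessel cells in the rises of these lists was not tested. Cdkn1a, a cell cycle inhibitor, rose with stroke in WT, 1.83 (SE 0.15, adjusted p = 1.58e-07), and in miKO, 1.02 (SE 0.15, adjusted p = 5.51e-05). S1pr1, a receptor for sphingosine-1-phosphate, was higher in miKO-Sham than in WT-Sham, 1.78 (SE 0.21, adjusted p = 2.71e-05). With stroke it fell in miKO, -1.02 (SE 0.21, adjusted p = 0.00118 by edgeR's quasi-likelihood test). Its interaction was -1.35 (SE 0.30, adjusted p = 0.0187 by the same test). Other regulators act on all of these genes.

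**Figure D3:**
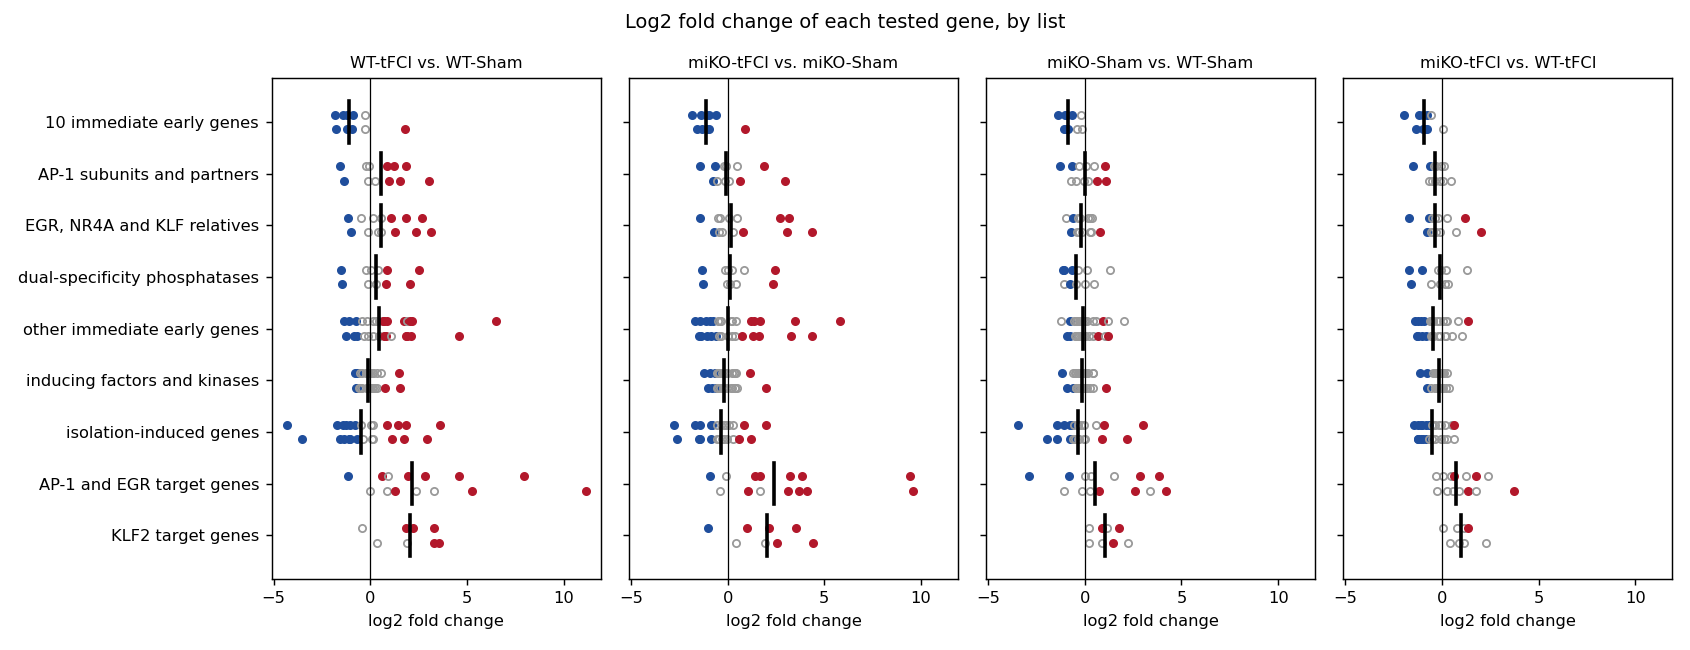
Log2 fold change of every tested gene of each list in the 4 comparisons, with a black bar at the list's median. Filled points are called (blue lower, red higher) and open points are not. The top row, the 10 genes, has medians of -1.10, -1.11, -0.89 and -0.93, and both target lists have medians to the right of 0 in each comparison.

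Because dissociation can induce these genes, 25 other genes known to respond to it were measured beside them, of which 8 also belong to the lists above. In WT-tFCI vs. WT-Sham, 7 rose and 12 fell, in miKO-tFCI vs. miKO-Sham 4 rose and 9 fell, in miKO-Sham vs. WT-Sham 4 rose and 9 fell, and in miKO-tFCI vs. WT-tFCI 1 rose and 11 fell (medians -0.52, -0.34, -0.37 and -0.49), with 5 higher and 7 lower in the interaction. Of all genes tested, 20.7%, 21.7%, 8.35% and 3.96% rose and 11.7%, 13.9%, 6.84% and 4.80% fell in the same 4 comparisons. Their summed level was 27566 to 29549 CPM in WT-Sham, 21075 to 22677 in miKO-Sham, 19045 to 21810 in WT-tFCI and 11497 to 14089 in miKO-tFCI, and all 25 were detected in each group. The part of isolation in the levels of the 10 genes was not tested.

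The 11 heat-shock genes and the 14 other genes of that list were also summed apart, a split made after the values were seen. The heat-shock genes summed to 7173 to 10552 CPM in WT-Sham, 4536 to 5375 in miKO-Sham, 3133 to 4340 in WT-tFCI and 3651 to 4275 in miKO-tFCI. WT-Sham was thus above all other groups, miKO-Sham was above both tFCI groups, and the tFCI groups overlapped. Of the 11, 8 fell in WT-tFCI vs. WT-Sham and 6 fell in miKO-Sham vs. WT-Sham, with 0 higher in either, while 3 rose and 3 fell in miKO-tFCI vs. miKO-Sham (median -0.02) and 1 rose and 1 fell in miKO-tFCI vs. WT-tFCI (median -0.05). Hspa1b, an inducible chaperone gene whose counts are uncertain because Hspa1a is nearly identical, was at 2023 CPM in WT-Sham, 525 in miKO-Sham, 103 in WT-tFCI and 78.8 in miKO-tFCI (means, n = 3). The 14 others summed to 18997 to 20393, 16539 to 17364, 14705 to 18547 and 7222 to 10307 CPM in the same order of groups. Of the 14, 7 rose and 4 fell in WT-tFCI vs. WT-Sham (median 0.49), 1 rose and 6 fell in miKO-tFCI vs. miKO-Sham (median -0.55), 4 rose and 3 fell in miKO-Sham vs. WT-Sham (median -0.05) and 0 rose and 10 fell in miKO-tFCI vs. WT-tFCI (median -0.99). Ccl4, a chemokine gene, was among those that fell in miKO-tFCI vs. WT-tFCI, -1.43 (SE 0.26, adjusted p = 0.0035). The shares of all genes given for the whole list also stand beside the counts of both parts.

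**Figure D4:**
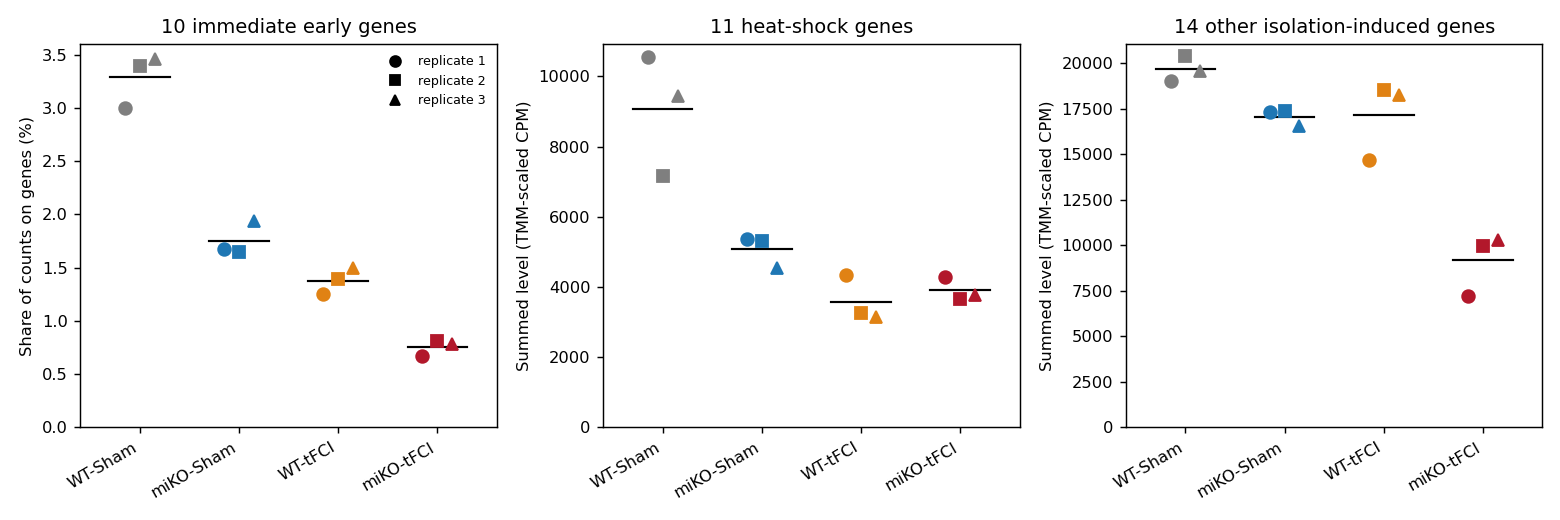
Share of counts taken by the 10 genes (left, percent) and summed levels of 11 heat-shock genes and 14 other isolation-induced genes (TMM-scaled CPM), by library, with a bar at each group mean and axes from 0. The 10 genes separate all 4 groups. The heat-shock genes set WT-Sham above miKO-Sham and both above the tFCI groups, which overlap. The summed level of the other genes sets WT-Sham above and miKO-tFCI below the remaining groups, which overlap. Single genes of these 14 differ in direction, with 7 higher and 4 lower in WT-tFCI vs. WT-Sham.

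Markers of other cell types were summed in the same libraries. The 10 monocyte and macrophage markers summed to 39.7 to 107 CPM in WT-Sham, 67.8 to 202 in miKO-Sham, 415 to 688 in WT-tFCI and 601 to 1029 in miKO-tFCI, of which Fn1, the fibronectin gene, made up 296 to 446 in WT-tFCI and 122 to 358 in miKO-tFCI. Of the 9 tested, 3 rose with stroke in WT mice and 6 in miKO mice, where 20.7% and 21.7% of all genes tested rose. The 8 endothelial markers summed to 22.5 to 31.3, 12.9 to 20.9, 64.6 to 182 and 114 to 304 CPM in the same order, and 6 and 8 of them rose with stroke in WT and miKO. The 8 neutrophil markers summed to 47.3 to 835, 320 to 349, 156 to 200 and 671 to 921. The WT-Sham range held those of miKO-Sham and WT-tFCI and overlapped that of miKO-tFCI, and miKO-tFCI was above WT-tFCI without overlap. The 8 markers of border-associated macrophages summed to 103 to 137, 76.0 to 318, 183 to 278 and 351 to 824 CPM, and the 7 astrocyte markers to 181 to 197, 112 to 137, 169 to 288 and 216 to 589. In each of these 5 lists every marker was detected in every group, apart from 1 monocyte and macrophage marker at 0 in miKO-Sham. Of the 7 astrocyte markers, 4 rose and 1 fell with stroke in WT, and 6 rose and 1 fell in miKO. In miKO-tFCI vs. WT-tFCI, 3 of them were higher and 1 lower, where 3.96% of all genes rose and 4.80% fell. Of 6 oligodendrocyte markers tested, 4 rose and 1 fell with stroke in WT, and 4 rose and 0 fell in miKO. The microglial markers summed to 29282 to 38678, 27254 to 32296, 20942 to 23284 and 10484 to 20267 CPM, and 7 of the 10 fell in WT-tFCI vs. WT-Sham, 10 in miKO-tFCI vs. miKO-Sham, 4 in miKO-Sham vs. WT-Sham (1 rose) and 5 in miKO-tFCI vs. WT-tFCI. Of all genes tested, 11.7%, 13.9%, 6.84% and 4.80% fell in the same comparisons. Cx3cr1 was among the markers that fell in both genotype comparisons, with log2 fold changes of -1.68 (sham) and -1.84 (tFCI). Because miKO mice lack 1 Cx3cr1 copy by design, its fall there is no measure of microglial content, and the sums include it. The share of mitochondrial counts ranged from 0.487% to 4.67% between libraries. In bulk RNA, fewer microglia in the sample and less of a transcript per microglial cell cannot be told apart, and the part of other cells in the results above was not tested.

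Within groups the 10 genes did not vary as a unit. After removal of group and batch means, the correlation of a gene with the mean of the other 9 across the 12 libraries ran from -0.64 (Nr4a1) to 0.49 (Atf3), a description over 7 residual degrees of freedom in libraries that share batch and depth. Within miKO-tFCI, replicate 1 was below the mean of its group for 8 of the 10 genes and above it for Nr4a1 and Fosb. Among the genes whose residual levels were most like the mean of the 10 were Sbno2, Gm45212, 5730405O15Rik and Tut7, with Pearson's r from 0.95 to 0.97, picked as the highest of 16451 genes and so a selected extreme. Gm45212 and 5730405O15Rik were near the floor, at means of 2.56 and 0.850 CPM.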

How the data were processed

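RNA of sorted CD45int CD11b+ microglia was measured in 12 libraries, 3 in each of 4 groups, with groups and sequencing batches taken from the sample labels. The deposited values are raw counts per gene, which the authors made from paired-end reads. The submitters' processing notes name FastQC 0.11.9, Trim Galore, HISAT2 2.2.1, SAMtools, HTSeq 1.99.2 and the build mm10 (GRCm38.p6), and the strand setting of the counting is not given in the sources used here. Gene symbols, positions and lengths came from GENCODE M21 (GRCm38), matched without version for 55141 of 55401 identifiers. Lines for reads on no gene (45.3% to 52.5% of the reads counted) were left out.

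The count table was fitted in edgeR 4.0.16 (R 4.3.3). The 16451 genes that filterByExpr kept were scaled by TMM, and the 12 libraries entered 1 quasi-likelihood fit with terms for group and batch. The thresholds were those of the study, an adjusted p (Benjamini-Hochberg) below 0.05 together with a log2 fold change beyond 0.58 in either direction. Overlap of groups was read from CPM. The steps were tested on simulated data. All 10 genes were named in every comparison. From each list, at most the 3 called genes with the highest level and the 1 with the largest change were named, those at a few counts being passed over. Of the 5 genes most like the mean of the 10, 4 were also named and 1 is not reported here. The genes, lists, tests and alternatives were chosen with earlier results of these data known. Alternatives were DESeq2 1.42.0, other size factors, filters, batch terms and library sets. P-values measure the spread between pools of animals. Depth per library was 7697864 to 9452222 counts on genes.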

Additional observations from a re-analysis of the deposited data

How the results depend on the processing

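The counts of called genes in the 4 comparisons between groups stayed within 1.5 times their value under every alternative run, at 8 in WT-tFCI vs. WT-Sham, 9 to 10 in miKO-tFCI vs. miKO-Sham, 6 to 8 in miKO-Sham vs. WT-Sham and 7 to 9 in miKO-tFCI vs. WT-tFCI, and no called difference changed sign. The genes whose call came or went were Ier2, Nr4a1, Fos, Fosb and Junb. Without a batch term Fosb lost its call in miKO-Sham vs. WT-Sham (adjusted p = 0.0959 by edgeR's quasi-likelihood test) and in miKO-tFCI vs. WT-tFCI (adjusted p = 0.245 by the same test). In the interaction, the count of called genes was 0, but 1 with DESeq2 (Atf3), 2 with no filter on low counts (Atf3 and Nr4a1), 1 with batch 2 only (Nr4a1), and 0 to 1 when each library was left out in turn.

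Signs changed only for differences close to 0, and the cause was not tested. The interaction of Jun was 0.00599 with DESeq2, 0.00323 with RLE size factors, 0.0449 with at least 10 counts in every library, 0.0122 without a batch term, 0.11 with batch 2 only and 0.15 with library totals without TMM. With batch 2 only, the interaction was -0.25 for Fosb and 0.0830 for Klf2, and with library totals it was 0.11 for Klf2. Dusp1 in miKO-tFCI vs. WT-tFCI was -0.0787 with library totals. Leaving out each library in turn gave interactions of -0.0701 to 0.16 for Fos, -0.12 to 0.32 for Fosb, -0.16 to 0.0874 for Jun, -0.0272 to 0.27 for Egr1 and -0.27 to 0.0959 for Klf2, and -0.15 to 0.20 for Dusp1 in miKO-tFCI vs. WT-tFCI.

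Scaling by library totals without TMM, and TMM computed without the 10 genes, were chosen after seeing the data. With library totals, the median of all genes moved to -0.23 in miKO-Sham vs. WT-Sham, where 821 genes rose and 2410 fell in place of 1374 and 1125, and to 0.16 in miKO-tFCI vs. miKO-Sham and 0.15 in the interaction, and changes of single genes are to be read against that shift. With DESeq2 that median was 0.14 in miKO-tFCI vs. miKO-Sham over the 34185 genes it tested. Replicate numbers are shared between the groups, but same-numbered libraries deviated together (correlation above 0.1 in every pair) only in miKO-tFCI vs. WT-tFCI (0.67, 0.33 and 0.32), where after removal of batch the values were 0.15, 0.07 and -0.03. With a replicate block in place of batch, the counts were 8, 10, 7, 8 and 0 in the order of the comparisons above, the same as without it. At this depth counting error did not limit the 10 genes, and 3 libraries per group limited the precision.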
